A study of Rattus norvegicus with 25 samples.

Results

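Transcript levels in the medial prefrontal cortex of the rat were compared between postnatal day 14 (P14) and postnatal day 21 (P21), the start and the end of the third postnatal week. The comparison took the 5 libraries labelled P21 and the 5 labelled P14, 10 of the 25 libraries in the series. All 25 came from wild-type Wistar rats with no treatment named in the labels. The other 15 libraries were from P8, P35 and P70, 5 at each age. They entered the same fit, so that all ages shared 1 estimate of the spread, and they were also used to place the change within the longer time course. The sources used here give neither the sex of the rats nor whether libraries were made from separate or pooled animals, so every p-value measures only the spread between these libraries. Tissue pieces hold many cell types, and a change in the number of cells of a type cannot be told apart from a change in RNA per cell.

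The medial prefrontal cortex is the part of the frontal lobe near the midline that serves working memory, decision making and the control of emotion, and it matures later than sensory areas. In the rat the third postnatal week lies between eye opening and weaning. In this period cortical neurons form many synapses, oligodendrocytes begin to wrap axons with myelin, and glial cells mature. These statements are background. The deposited table lists transcripts by Ensembl gene ID only, and 0 of its 29516 IDs matched the reference table used here, so no ID could be paired with a gene name. The results are therefore given as single IDs with their levels, and functions, cell type markers and sequences were not analysed here. For the same reason the labelled tissue could not be checked against its markers.

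Levels are in FPKM, a unit in which sequenced fragments are divided by the length of the transcript and by the size of the library. Of the 29516 IDs, 5277 were at 0 in all 25 libraries, and 14128 reached at least 1 FPKM in at least 5 libraries and were tested. P14 libraries held 13084 ± 231 IDs at 1 FPKM or more and P21 libraries 13066 ± 144 (SD, n = 5 each; p = 0.897 by an exact two-sided permutation test, and 0.897 after adjustment over 3 measures). The 10 most abundant IDs held 49.3% ± 7.92 of the FPKM total at P14 and 55.9% ± 8.83 at P21 (SD, n = 5 each; p = 0.262 by the exact permutation test, 0.429 after adjustment). FPKM totals were 472548 to 1128357 at P14 and 473265 to 1504512 at P21 (p = 0.286 by the exact permutation test, 0.429 after adjustment). None of the 3 measures separated the ages. Whole reads could be recovered from the FPKM steps for 9468 of the tested IDs and summed to 1906031 reads in P21 replicate 5, the shallowest library of both ages, and to 6848152 in P14 replicate 2, the deepest by this sum. The recovered IDs had a median of 210 reads over the 10 libraries, and 611 of them had a median under 10 reads. P14 replicates 2 and 5 and P21 replicate 5 correlated least with the other libraries of their age, with mean r of 0.906, 0.919 and 0.931. Where the called change of a named ID from P14 to P21 rests on them, it is given without them as well.

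Over the week more IDs fell than rose, and most changes were modest. Of 14128 IDs tested, 2458 changed (17.4%; limma on log2(FPKM + 0.5), Benjamini-Hochberg adjusted p under 0.05), 730 upward (5.17%) and 1728 downward (12.2%). Fold changes here are differences of log2(FPKM + 0.5), which understate the change of IDs with low levels. The median change was 0.52 among the rises and -0.49 among the falls, against -0.09 over all IDs tested. A change of less than 0.5 was found for 344 of the rises and 911 of the falls. At the other end, the change reached 1 log2 unit in 76 rises and 108 falls, 2 log2 units in 23 rises and 6 falls, and 3 log2 units in 13 rises and 1 fall. Very large changes were thus mostly rises, although falls were the commoner change.

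The balance of rises and falls moved with the scaling of the libraries. Rises made up 29.7% of the calls with the values as deposited. They made up 46.2% of 2602 calls after quantile normalization and 50.8% of 2794 calls after median-of-ratios scaling, which moved the median of all IDs to -0.02 and 0. With FPKM totals made equal between libraries the median of all IDs was -0.38, and 154 IDs were called, 18.8% of them rises. Without the 3 libraries that correlated least with their age there were 1580 calls, 591 rises and 989 falls. With the first number in the sample titles as a random block there were 1411 calls, 454 rises and 957 falls. What that number stands for is not given in the labels, and no number recurs at another age, so a batch that follows it cannot be told apart from age.

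**Figure D1:**
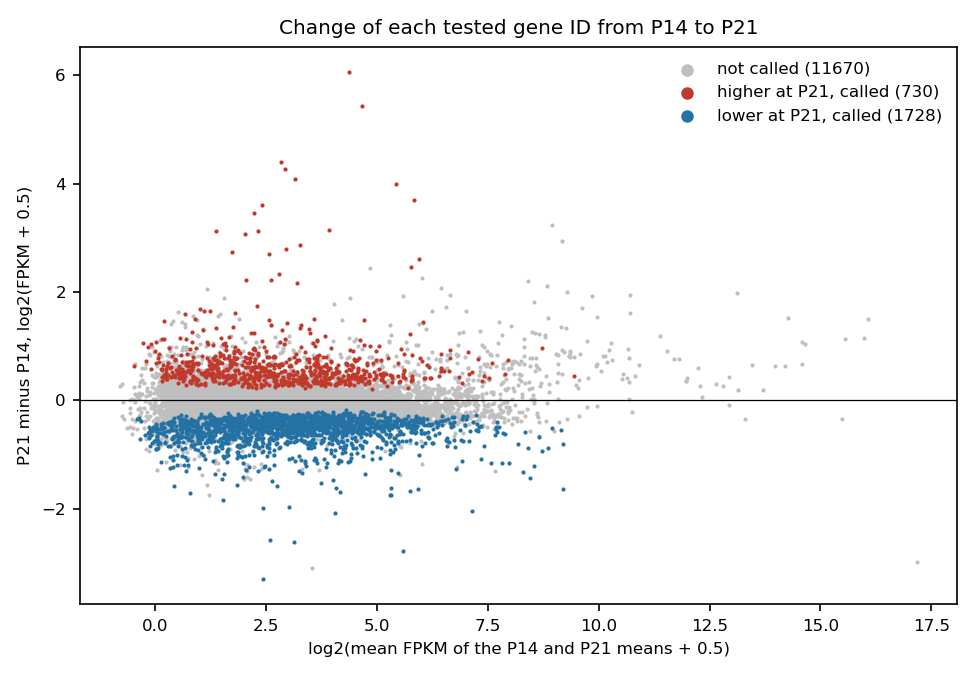
Each point is 1 of the 14128 tested gene IDs. The horizontal axis is its mean level over P14 and P21 and the vertical axis its change from P14 to P21, both as log2(FPKM + 0.5). Coloured points are the 730 called rises and 1728 called falls, most of which lie close to 0, while the few changes beyond 3 log2 units are 13 rises and 1 fall.

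Rising IDs had a lower median level than falling IDs at P14, and at P21 the medians were close. The 730 risers had a median of 4.23 FPKM at P14 and 6.91 FPKM at P21, and the 1728 fallers 9.77 and 6.74 FPKM. Among IDs that changed by at least 1 log2 unit the contrast at P14 was larger, and at P21 the order was reversed. The 76 strong risers had a median of 1.4 FPKM at P14 and 8.67 at P21, and 8 of them were at 10 FPKM or more at P14 against 31 at P21. The 108 strong fallers had a median of 10.6 FPKM at P14 and 3.61 at P21, with 55 at 10 FPKM or more at P14 and 31 at P21. These medians describe IDs chosen by the same contrast and carry no test.

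The share of falls varied with the mean level over the 25 libraries. Rises were 4.9% of the 2676 IDs under 2 FPKM, 5.11% of the 2525 IDs at 10 to 20 FPKM and 5.08% of the 492 IDs at 50 to 100 FPKM. Falls were 9.75%, 14.7% and 17.5% in the same 3 classes. Above 100 FPKM, 17 of 495 IDs rose and 55 fell (3.43% and 11.1%). Precision also varied with level: the median standard error of the change was 0.16 under 2 FPKM, 0.12 at 10 to 20 FPKM and 0.23 above 100 FPKM. The median change of all IDs in a class varied as well: -0.05 under 2 FPKM, -0.12 at 10 to 20, -0.16 at 50 to 100 and 0.03 above 100 FPKM. Whether the higher share of falls at higher levels follows from precision or from the scaling of the libraries was not tested.

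The 20 IDs described next are the 10 largest rises and 10 largest falls that passed the test, with the 5 P14 and the 5 P21 libraries wholly apart, a mean of at least 5 FPKM at the higher age, and every library of that age within 3-fold of its mean. All P21 libraries lay above all P14 libraries at 536 IDs (3.79%) and under them at 1299 IDs (9.19%). All criteria were met by 287 rises and 783 falls. The last rise taken changed by 2.46 and the first left out by 2.21, and the last fall taken changed by -1.74 and the first left out by -1.68. Of the 20, 6 rises and 3 falls have ID numbers in 1 range, ENSRNOG00000034300 to ENSRNOG00000036300, which was set after the values were seen and holds 494 of the tested IDs. The median standard error of the change in this range was 0.62, against 0.14 over all tested IDs. Fewer of its IDs were called, 14 up and 13 down, or 5.47% against 17.4%. Together the IDs of this range held 42.9% to 74.7% of the FPKM total in P14 libraries and 52.2% to 81.0% in P21 libraries. The list of largest changes thus draws much on a range with large standard errors.

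**Figure D2:**
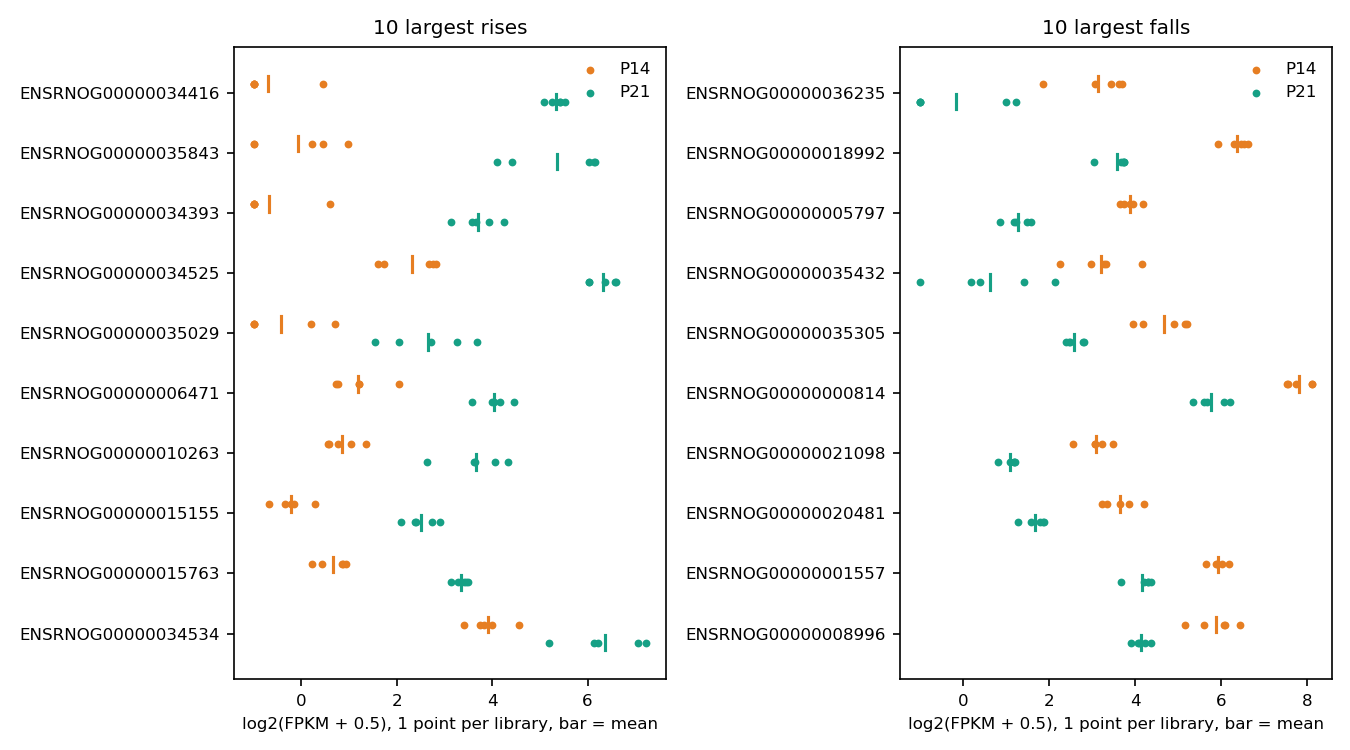
The 10 largest rises and the 10 largest falls are shown, 1 row per gene ID, with 1 point per library at P14 and at P21 and a bar at each mean, on the log2(FPKM + 0.5) scale. The points of both ages are separate in every row because the rule asked for it, and rows with a wide scatter at 1 age, such as ENSRNOG00000035843 with P21 values from 16.6 to 71.1 FPKM, stand beside rows with a narrow one, such as ENSRNOG00000015763 with P21 values from 8.29 to 10.8 FPKM.

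A first group of rises was low at P8, rose over the week and stayed high to adulthood. ENSRNOG00000015763 was at 1.29, 1.32, 0.842, 1.4 and 0.673 FPKM in the 5 P14 libraries and at 10.1, 9.29, 10.4, 8.29 and 10.8 FPKM in the 5 P21 libraries. All P21 libraries were thus above all P14 libraries, and both ages were tight. The mean rose from 1.11 ± 0.326 to 9.76 ± 0.983 FPKM (SD, n = 5 each), 8.83 times as much, a log2 change of 2.7 ± 0.16 (SE; limma adjusted p = 1.31e-10). Its mean was 0.246 FPKM at P8, 28.9 at P35 and 29.1 at P70, so the third week was 1 stage of a longer climb.

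ENSRNOG00000015155 was almost off at P14, with 0.284, 0.72, 0.353, 0.396 and 0.124 FPKM. At P21 it was at 4.72, 3.77, 6.16, 4.79 and 7.0 FPKM, the lowest of which was above 5 times the highest P14 value. The mean rose from 0.375 ± 0.219 to 5.29 ± 1.28 FPKM (SD, n = 5 each; log2 change 2.73 ± 0.2 SE, limma adjusted p = 3.87e-09). It rested on 1 to 72 recovered reads per library, so its P14 levels are coarse. The mean was 0.0689 FPKM at P8, 9.18 at P35 and 8.23 at P70.

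ENSRNOG00000006471 was at 3.61, 1.21, 1.8, 1.16 and 1.81 FPKM at P14 and at 17.3, 15.4, 16, 11.5 and 21.4 FPKM at P21. P14 replicate 1 was the highest of its age by a wide gap, but still far under every P21 library. The mean rose from 1.92 ± 0.995 to 16.3 ± 3.58 FPKM (SD, n = 5 each; log2 change 2.86 ± 0.21 SE, limma adjusted p = 3.47e-09). It reached 28.0 FPKM at P35 and was at 22 at P70, from 0.294 at P8. These 3 IDs had P70 means well above their P8 means, and 2 of the 3 ended under their P35 mean.

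**Figure D3:**
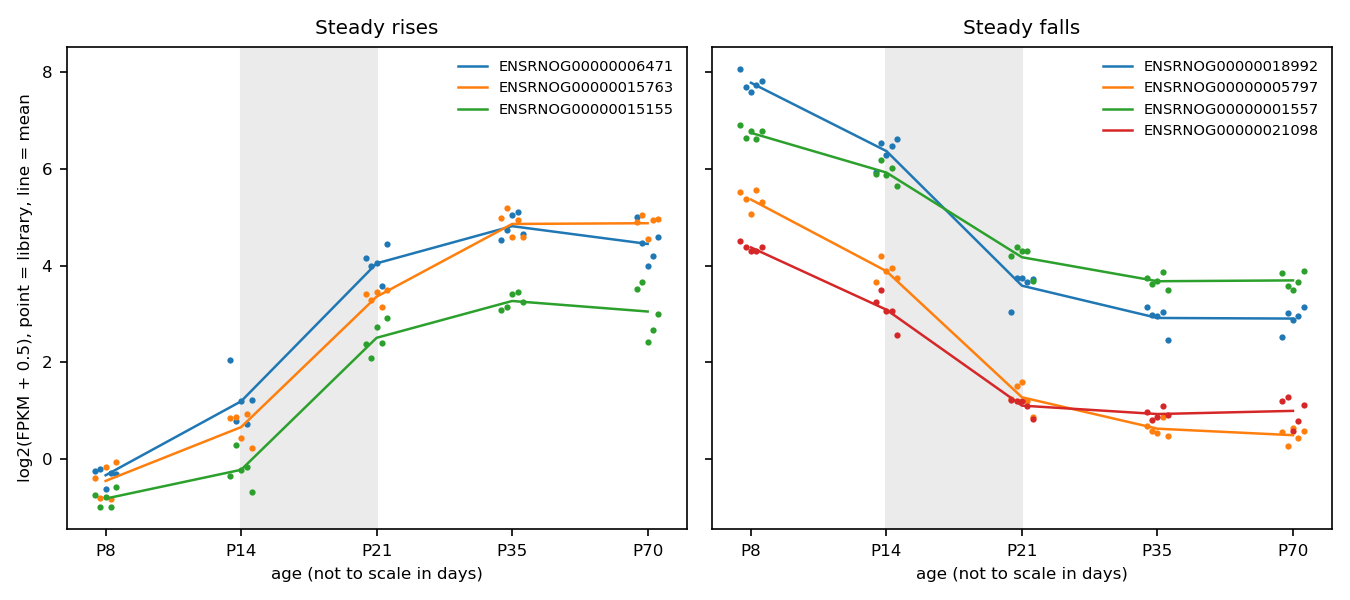
Levels of 3 rises (left) and 4 falls (right) at all 5 ages, as log2(FPKM + 0.5), with 1 point per library and a line through the age means. The shaded band marks P14 to P21. The rises start near the floor of the scale at P8 and level off by P35 or P70, and the falls level off at or soon after P21.

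Of the 10 falls, 7 were steady declines that were under way before P14, with mean levels that fell from P8 to P14 and again to P21. ENSRNOG00000018992 was at 60.5, 92.0, 77.5, 88.0 and 98.2 FPKM at P14 and at 7.71, 12.9, 12.9, 12.2 and 12.7 FPKM at P21. The lowest P14 library was more than 4 times the highest P21 library. The mean fell from 83.2 ± 14.8 to 11.7 ± 2.23 FPKM (SD, n = 5 each; log2 change -2.79 ± 0.16 SE, limma adjusted p = 5.91e-11). It had been 221 FPKM at P8 and was 7.15 at P35 and 7.06 at P70.

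ENSRNOG00000005797 was at 12.1, 17.8, 14.3, 14.9 and 12.8 FPKM at P14 and at 1.86, 2.33, 2.5, 1.78 and 1.31 FPKM at P21. The ages were far apart in every library. The P14 mean of 14.4 ± 2.23 FPKM was 7.36 times the P21 mean of 1.96 ± 0.474 FPKM (SD, n = 5 each; log2 change -2.61 ± 0.13 SE, limma adjusted p = 5.03e-12). The mean was 41.0 FPKM at P8, 1.05 at P35 and 0.91 at P70.

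ENSRNOG00000000814, among the more abundant of the falls, was at 277, 188, 214, 185 and 274 FPKM at P14 and at 66.3, 50.3, 47.8, 40.0 and 73.3 FPKM at P21. Replicates 1 and 5 were the highest of both ages, although equal numbers do not pair libraries here. The mean fell from 227 ± 45.0 to 55.5 ± 13.8 FPKM (SD, n = 5 each; log2 change -2.04 ± 0.2 SE, limma adjusted p = 3.02e-07), on 414 to 3728 recovered reads per library. At P8 it was 409 FPKM, at P35 36.0 and at P70 34.5.

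ENSRNOG00000001557 was at 59.3, 71.7, 58.3, 64.5 and 49.5 FPKM at P14 and at 17.9, 20.3, 19.1, 19.3 and 12.3 FPKM at P21. Replicate 5 was the lowest library at both ages. The log2 change was -1.75 ± 0.12 (SE; limma adjusted p = 1.38e-09), and the means ran from 107 FPKM at P8 over 60.6 and 17.8 to 12.3 at P35 and 12.5 at P70. ENSRNOG00000008996 had the same P14 mean, 60.6 FPKM, with a wider range of 35.0 to 86.4, and was at 14.4 to 20.2 FPKM at P21 (log2 change -1.74 ± 0.19 SE, limma adjusted p = 1.52e-06). It fell on to 9.26 FPKM at P35 and 8.13 at P70.

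At lower levels, ENSRNOG00000021098 was at 8.96, 10.8, 7.85, 7.85 and 5.41 FPKM at P14 and at 1.82, 1.78, 1.78, 1.63 and 1.27 FPKM at P21 (log2 change -1.98 ± 0.14 SE, limma adjusted p = 1.59e-09). Its P21 mean of 1.66 FPKM was close to the 1.41 at P35 and 1.52 at P70, so its decline from 20.3 FPKM at P8 was over by P21. ENSRNOG00000020481 went from 8.85 to 18.1 FPKM at P14 to 1.94 to 3.2 FPKM at P21 (log2 change -1.97 ± 0.19 SE, limma adjusted p = 1.27e-07). It was at 37.5 FPKM at P8 and at 3.3 and 3.47 FPKM at P35 and P70.

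ENSRNOG00000035305 went against this pattern by dipping at P21. It was at 29.5, 35.4, 17.6, 15 and 36.2 FPKM at P14 and at 6.58, 4.75, 5.07, 5.04 and 6.4 FPKM at P21. Values at P14 were spread over more than 2-fold, and those at P21 were close together. The log2 change was -2.09 ± 0.25 (SE; limma adjusted p = 3.09e-06), but the mean was 14.7 FPKM at P35 and 10.3 at P70, above the 5.57 of P21. The 2 remaining falls were sparse. ENSRNOG00000036235 was at 3.16, 10.4, 11.8, 7.94 and 12.4 FPKM at P14 and at 1.86 and 1.49 FPKM in P21 replicates 2 and 3, and was listed at 0 in the other P21 libraries. It had at most 13 recovered reads in a library, and its fall (-3.29 ± 0.74 SE, limma adjusted p = 0.00306) lost the call without the 3 libraries that correlated least with their age (-2.8, adjusted p = 0.0557). ENSRNOG00000035432 was at 4.27 to 17.4 FPKM at P14 and at 0 to 3.89 FPKM at P21, on 0 to 25 recovered reads (log2 change -2.57 ± 0.62 SE, limma adjusted p = 0.00515).

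The week also moved some of the most abundant transcripts. Of the 4 called IDs of highest level in each direction, ENSRNOG00000017445 changed most. It was at 832, 1039, 720, 895 and 938 FPKM at P14 and at 292, 250, 301, 277 and 291 FPKM at P21. No P21 library came near the lowest P14 library. The mean fell from 884 ± 119 to 282 ± 20.2 FPKM (SD, n = 5 each; log2 change -1.64 ± 0.16 SE, limma adjusted p = 2.26e-07), from 1843 FPKM at P8 and on to 184 at P35 and 146 at P70. ENSRNOG00000016810 fell from 743 ± 96.3 to 428 ± 68.3 FPKM (SD, n = 5 each; log2 change -0.8 ± 0.17 SE, limma adjusted p = 0.0021). Its mean was 1150 FPKM at P8 and 335 at P70. The call was lost after quantile normalization (-1.1, adjusted p = 0.0517) and with equal FPKM totals (-1.12, adjusted p = 0.107). ENSRNOG00000033172 fell from 679 to 460 FPKM (log2 change -0.55, limma adjusted p = 0.00803). ENSRNOG00000029996 fell from 578 to 402 FPKM (log2 change -0.51, limma adjusted p = 0.0234). Both lost the call without the 3 libraries that correlated least with their age (adjusted p = 0.0862 and 0.118). The latter also lost it without P14 replicate 2, P14 replicate 4 or P21 replicate 1 (adjusted p = 0.0525 to 0.0594). It did not pass with the title number as a random block or in the 10 libraries alone (adjusted p = 0.0958 and 0.0522). Both IDs also lost the call after quantile normalization (-0.82 and -0.64, adjusted p = 0.17 and 0.251) and with equal FPKM totals (-0.88 and -0.84, adjusted p = 0.246 and 0.278).

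Among abundant rises, ENSRNOG00000005479 was at 179, 181, 153, 169 and 242 FPKM at P14 and at 270, 297, 280, 277 and 420 FPKM at P21. Replicate 5 was the highest library of both ages, and the ages did not overlap. The mean rose from 185 ± 33.7 to 309 ± 62.8 FPKM (SD, n = 5 each; log2 change 0.74 ± 0.13 SE, limma adjusted p = 0.000326). It was at 56.8 FPKM at P8 and 274 at P70. With equal FPKM totals the change was 0.41 and did not pass (adjusted p = 0.444). ENSRNOG00000033465 was at 338, 212, 304, 271 and 232 FPKM at P14 and at 603, 522, 385, 332 and 998 FPKM at P21, so P21 replicate 4 lay under P14 replicate 1. Its change of 0.97 ± 0.29 (SE; limma adjusted p = 0.0215) fell to 0.74 without P21 replicate 5 and 0.89 without P14 replicate 2, and neither passed the test (adjusted p = 0.0678 and 0.0551). It was 0.56 without the 3 libraries that correlated least with their age and 0.65 with equal FPKM totals (adjusted p = 0.281 and 0.331). The calls of ENSRNOG00000005195 (589 to 802 FPKM) and ENSRNOG00000020650 (197 to 274 FPKM), rises of 0.45 and 0.49 log2 units (limma adjusted p = 0.0374 and 0.0227), were not stable. With equal FPKM totals the changes were 0.13 and 0.17 (adjusted p = 0.818 and 0.755), and after quantile normalization 0.16 and 0.54 (adjusted p = 0.844 and 0.0713). With the title number as a random block neither passed (adjusted p = 0.0952 and 0.0856). Among the 10 fits that leave out 1 library, the former passed only without P14 replicate 2 or P21 replicate 4 (adjusted p up to 0.0919 in the others). The latter did not pass without P14 replicate 3 or 5 or without P21 replicate 1, 2 or 3 (adjusted p = 0.052 to 0.0615).

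The most abundant ID of all, ENSRNOG00000036047, showed no difference that passed the test. It was at 174709, 34193, 89176, 91169 and 269455 FPKM at P14 and at 0, 219412, 186754, 56809 and 366500 FPKM at P21. The highest and the lowest libraries of both ages together were P21 libraries, 1 of them listed at 0. Such a 0 beside values of this size can be a failed estimate, so no mean or fold is given here (limma adjusted p = 0.708).

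The step from P14 to P21 was next set against the steps before and after it, P8 to P14 and P21 to P35, by testing the difference of the steps. The steps share the P14 and P21 libraries and differ in length, so these are differences per interval, not rates. They were fitted only with the values as deposited and all 25 libraries, and not under the alternative settings. The step over the third week differed from the earlier one at 582 IDs (4.12%; limma adjusted p under 0.05). At 340 of them the steps ran in opposite directions, at 210 they ran the same way with the later one smaller, and at 32 the same way with the later one larger. The step differed from the following one at 83 IDs (0.587%), of which 40 ran in opposite directions, 42 the same way with the third week larger, and 1 the same way with it smaller. Directions and sizes are those of the estimates, whether or not each step passed alone. An error in the shared mean moves the compared steps in opposite directions, so these counts are a description only.

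At 15 IDs the third week differed from both neighbouring steps, 5 upward and 10 downward, and its estimate was the larger in size on the log2(FPKM + 0.5) scale. Size itself was not tested. Some of these calls were near the limit, such as ENSRNOG00000035189 with a limma adjusted p of 0.0493 against the following step. In 7 of the 15 all 3 steps ran the same way, and none of the 15 swung between libraries in the sense given further on. In the others a neighbouring step ran the other way, and there the test does not show which step was larger. For ENSRNOG00000007214 the step was 0.72 from P8 to P14 and -0.79 in the third week. ENSRNOG00000015155 and ENSRNOG00000006471 were among the 5 rises. For ENSRNOG00000015155 the step exceeded the earlier one with an adjusted p of 0.000962 and the later one with 0.009 (limma). For ENSRNOG00000006471 the third week's 2.86 compared with 1.53 before it and 0.77 after it (limma adjusted p of the differences 0.0405 and 0.00758). ENSRNOG00000013269 was a smaller rise of the same kind: it was at 0.154 to 0.237 FPKM at P14 and 0.82 to 1.21 FPKM at P21 (log2 change 1.12 ± 0.13 SE, limma adjusted p = 1.74e-06), and it was at 0.0919 FPKM at P8 and 1.06 at P70. It rested on 3 to 25 recovered reads per library, and the limit of the scale at low levels holds for its steps as well.

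Among the 10 falls of this kind were ENSRNOG00000018992, ENSRNOG00000005797, ENSRNOG00000001557 and the dip of ENSRNOG00000035305. ENSRNOG00000001115 was at 6.05, 6.72, 4.34, 5.05 and 4.29 FPKM at P14 and at 1.62, 1.77, 1.5, 1.76 and 1.55 FPKM at P21. The P21 libraries were tightly grouped, under every P14 library. The log2 change was -1.42 ± 0.13 (SE; limma adjusted p = 8.15e-08), against means of 8.16 FPKM at P8 and 0.868 at P70. ENSRNOG00000007079 fell in a like way from 5.6 ± 0.597 to 2.09 ± 0.233 FPKM (SD, n = 5 each; log2 change -1.23 ± 0.1 SE, limma adjusted p = 2.46e-08).

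Other IDs of this group were high at P14 alone or level before it. ENSRNOG00000007214 was at 2.31, 2.41, 2.55, 2.59 and 1.45 FPKM at P14 and at 1.06, 1.04, 1.25, 0.976 and 1.05 FPKM at P21 (log2 change -0.79 ± 0.12 SE, limma adjusted p = 6.66e-05). It had been at 1.16 FPKM at P8 and was at 1.36 at P35, which makes P14 its highest age. ENSRNOG00000035189 was at 164 FPKM at P8 and 166 at P14, then at 75.5 at P21 and 88.0 at P70 (log2 change from P14 to P21 -1.13 ± 0.18 SE, limma adjusted p = 0.000113). The mirror image was ENSRNOG00000015036, at 2.38 FPKM at P8, 1.13 at P14, 2.83 at P21 and 1.91 at P70 (log2 change 1.02 ± 0.21 SE, limma adjusted p = 0.00159). Its call was lost with equal FPKM totals (0.77, adjusted p = 0.262), as was that of ENSRNOG00000007214 (-1.05, adjusted p = 0.0572). The remaining falls were ENSRNOG00000032549, from 3.68 ± 0.6 to 1.55 ± 0.105 FPKM, and ENSRNOG00000033205, from 1.85 ± 0.276 to 0.868 ± 0.29 FPKM (SD, n = 5 each; log2 changes -1.02 and -0.8, limma adjusted p = 9.64e-05 and 0.000263).

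A different course was seen in the IDs that rose most. Levels of these IDs swung between libraries of the same age at P8, P35 or P70, with 1 library under 1 FPKM and another at 10 FPKM or more. This class was formed after the values were seen. Of the 60 tested IDs in it, 7 were called up and 0 down, against 5.17% up and 12.2% down over all tested IDs. The 7 each rose by at least 2 log2 units, and the median change of all 60 was 0.41. Of the 60, 36 have ID numbers in the imprecise range named above. ENSRNOG00000034416 was listed at 0 in P14 replicates 2 to 5 and at 0.876 FPKM in replicate 1. In the P21 libraries it was at 33.7, 42.6, 42.2, 45.6 and 37.6 FPKM. The ages were therefore wholly apart, with a log2 change of 6.05 ± 1.19 (SE; limma adjusted p = 0.00102), whose size depends on the pseudocount. It had been at 95.2 to 172 FPKM at P8, while P35 values spread from 0 to 49.3 FPKM and P70 values from 0 to 40.4 FPKM.

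ENSRNOG00000035843 was at 0 to 1.47 FPKM at P14 and at 70.2, 20.9, 64.5, 16.6 and 71.1 FPKM at P21 (log2 change 5.44 ± 1.17 SE, limma adjusted p = 0.0022). P21 replicates 2 and 4 were well under the other P21 libraries. ENSRNOG00000034525 was at 5.89, 2.56, 6.28, 2.81 and 6.59 FPKM at P14 and at 94.2, 64.7, 82.2, 65.1 and 96.3 FPKM at P21 (log2 change 4.0 ± 0.92 SE, limma adjusted p = 0.0039). Replicates 2 and 4 were the lowest at both ages. It ranged from 133 to 247 FPKM at P8 and from 0.811 to 70.9 FPKM at P35.

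ENSRNOG00000034393 was listed at 0 in P14 replicates 1 to 4 and at 1.02 FPKM in replicate 5, and was at 8.26 to 18.6 FPKM at P21 (log2 change 4.39 ± 0.92 SE, limma adjusted p = 0.00173). ENSRNOG00000035029 was at 0 to 1.12 FPKM at P14 and at 2.43 to 12.3 FPKM at P21, on 0 to 13 recovered reads (log2 change 3.07 ± 0.82 SE, limma adjusted p = 0.0114). ENSRNOG00000035716, outside this class and named after its values were seen, was the only ID listed under 0.1 FPKM in all P14 libraries and at 1 FPKM or more in all P21 libraries. It was at 0 in all P14 libraries and at 3.13, 2.54, 5.42, 2.69 and 6.85 FPKM at P21, and the opposite switch was seen for 0 IDs. At P8 every library of these IDs was above every P14 library. ENSRNOG00000034534 had the same course without meeting the definition: it was at 10.1 to 23.0 FPKM at P14 and at 36.0 to 150 FPKM at P21, after 84.5 to 454 FPKM at P8 (log2 change 2.46 ± 0.66 SE, limma adjusted p = 0.0112). Its call was lost without the 3 libraries that correlated least with their age (2.54, adjusted p = 0.052). These rises, from ENSRNOG00000034416 on, shared their high libraries. Each had its highest P35 levels in replicates 3 and 5 and its highest P70 levels in replicates 1 and 2. ENSRNOG00000034416 was at 49.3 and 22.9 FPKM in these P35 libraries and at most at 0.845 in the others. P70 replicates 1 and 2 share the first title number 2, which no other library has. Whether such a difference between libraries also underlies the change from P14 to P21 was not tested.

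**Figure D4:**
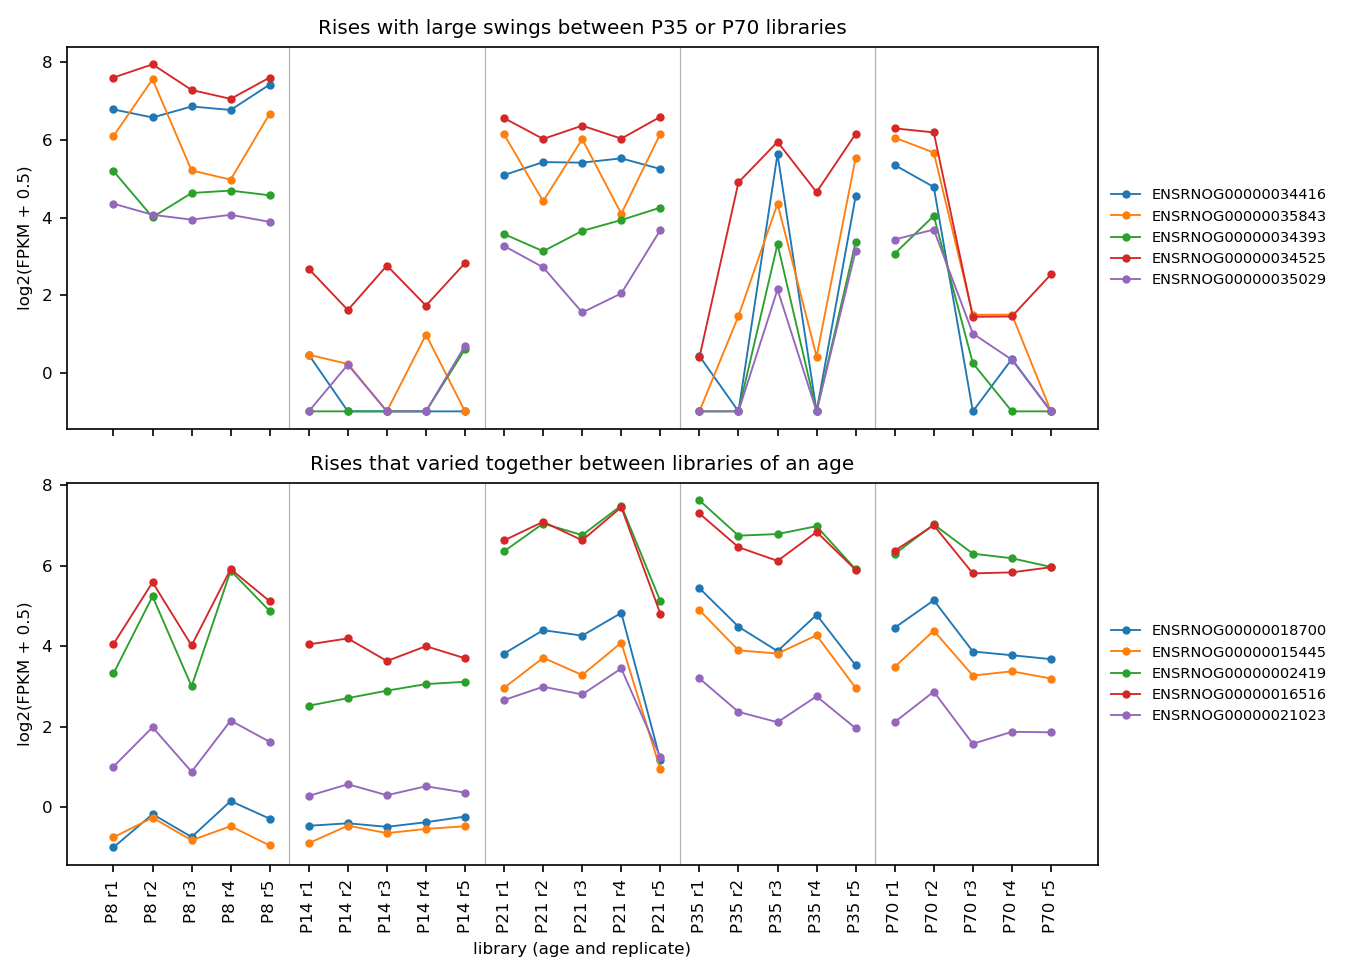
Levels in all 25 libraries, ordered by age and replicate, as log2(FPKM + 0.5). The upper panel shows 5 rises whose levels swing between libraries of P35 or P70, with P14 low throughout. Each is highest in replicates 3 and 5 of P35 and in replicates 1 and 2 of P70. The lower panel shows 5 rises that moved together between libraries of the same age, with P21 replicate 5 the lowest and P21 replicate 4 the highest P21 library in each.

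Another set of rises also varied together between libraries of 1 age, with other libraries high. ENSRNOG00000018700 was at 0.225, 0.257, 0.212, 0.271 and 0.35 FPKM at P14 and at 13.6, 20.6, 18.7, 27.9 and 1.76 FPKM at P21. P21 replicate 5 was thus far under the other P21 libraries, though still above all P14 libraries. The mean went from 0.263 ± 0.0544 to 16.5 ± 9.72 FPKM (SD, n = 5 each; log2 change 4.09 ± 0.48 SE, limma adjusted p = 2.79e-06). Without P21 replicate 5 the change was 4.72, and without P21 replicate 4 it was 3.81, with adjusted p of 3.32e-09 and 1.6e-05. Its P8 mean was 0.282 FPKM, and at P35 and P70 it was 23.4 and 19.2 FPKM, so most of the rise fell within the third week. The change from P21 to P35, 0.73 log2 units, did not pass the test (limma adjusted p = 0.606). Nor did the difference between that step and the third week's (limma adjusted p = 0.0642).

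After subtracting the mean of each age, the deviations of 12 other IDs correlated with those of ENSRNOG00000018700 at r of 0.8 or more over the 25 libraries, and 0 at -0.8 or less. This set was chosen after the values were seen. The libraries share their depth and composition, so the correlation is a description only. Of the 13 IDs, 11 were called up and 0 down, against 5.17% and 12.2% over all tested IDs, and without P21 replicate 5 all 13 were called up. Nothing is read from this count, since the members were picked for following the deviations of a strong riser, those at P21 included. With equal FPKM totals 5 of the 11 lost the call. ENSRNOG00000015445 (r = 0.95) was at 0.0373, 0.227, 0.139, 0.187 and 0.219 FPKM at P14 and at 7.31, 12.6, 9.24, 16.5 and 1.42 FPKM at P21 (log2 change 3.6 ± 0.41 SE, limma adjusted p = 1.74e-06). ENSRNOG00000016516 (r = 0.91) was at 16, 17.8, 11.9, 15.5 and 12.5 FPKM at P14 and at 98.6, 136, 98.7, 175 and 27.5 FPKM at P21 (log2 change 2.61 ± 0.42 SE, limma adjusted p = 0.000117). The order of the P21 libraries was the same for both, from replicate 5 to replicate 4.

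ENSRNOG00000021023 (r = 0.94) was at 0.714 to 0.983 FPKM at P14 and at 5.83, 7.46, 6.47, 10.4 and 1.86 FPKM at P21 (log2 change 2.22 ± 0.33 SE, limma adjusted p = 5.39e-05). ENSRNOG00000009345, at the edge of the set, was at 1.34 to 2.05 FPKM at P14 and at 5.26, 8.23, 6.99, 11.8 and 3.43 FPKM at P21 (log2 change 1.74 ± 0.31 SE, limma adjusted p = 0.000392). The other 6 called members rose by 1.0 to 1.59 log2 units. At P14, 5 of these 6 were at most at 0.284 FPKM in every library, and ENSRNOG00000017496 was at 16.6 to 21.2 FPKM and reached 22.4 to 48.5 FPKM at P21. ENSRNOG00000002419, just outside the set, was at 5.24, 6.04, 6.94, 7.83 and 8.17 FPKM at P14 and at 81.6, 132, 108, 180 and 34.3 FPKM at P21 (log2 change 3.7 ± 0.46 SE, limma adjusted p = 5.15e-06). It is the remaining one of the 5 rises with a larger estimated step than in both neighbouring intervals. ENSRNOG00000016516 had 34.7 FPKM at P8 and ENSRNOG00000002419 28.3, above their P14 levels, whereas ENSRNOG00000018700 and ENSRNOG00000015445 were under 1 FPKM at both ages.

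The 2 members of the set that were not called were ENSRNOG00000000775 and ENSRNOG00000018991. ENSRNOG00000000775 was at 1.73 to 2.48 FPKM at P14 and at 3.06, 4.98, 3.96, 5.93 and 1.28 FPKM at P21 (log2 change 0.66, limma adjusted p = 0.0693). Without P21 replicate 5, its lowest library, the change was 0.95 and passed (adjusted p = 0.00151). ENSRNOG00000018991 changed by 0.41 with all libraries (adjusted p = 0.229) and by 0.63 without P21 replicate 5 (adjusted p = 0.0372). P21 replicate 5 had the lowest relative depth of the 10 libraries, 0.386 of the median library, and the highest share of FPKM in its 10 most abundant IDs, 67.0%. P21 replicate 4 had the highest relative depth, 1.31, and the lowest such share at P21, 42.4%. Other ages differed in this respect. At P70, replicate 2 had the lowest relative depth, 0.447, and the highest such share, 55.7%. Yet it was the highest P70 library of ENSRNOG00000018700, at 34.8 FPKM. At P35, replicate 5 had the lowest relative depth, 0.951, and the highest such share, 57.8%, and was the lowest P35 library of that ID. The part of depth and composition in the shared deviations of the set was not tested. ENSRNOG00000010263, 1 of the 10 largest rises, also had its lowest P21 value, 5.71 FPKM, in replicate 5 and its highest, 19.5, in replicate 4 (r = 0.78). It was at 0.981 to 2.04 FPKM at P14 (log2 change 2.8 ± 0.38 SE, limma adjusted p = 1.6e-05).

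Most IDs that changed over the third week differed in the same direction between P8 and P70, a contrast that shares no library with P21 against P14. Over all tested IDs, 19.9% were called higher and 34.6% lower at P70. Of the 730 risers, 679 were higher at P70 than at P8 (93.0%), 21 were lower (2.88%) and 30 were not called. Of the 1728 fallers, 1609 were lower at P70 (93.1%), 5 were higher (0.289%) and 114 were not called. In all, 2288 of the 2458 differed the same way in both contrasts. Among strong risers the share was lower: 52 of the 76 were higher at P70, 14 were lower and 10 were not called. Most of these 14 have ID numbers in the imprecise range named above. Of the 108 strong fallers, 99 were lower, 0 were higher and 9 were not called.

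The 26 exceptions were mostly IDs for which P14 was an extreme age. In 16 of the 21 risers that were lower at P70 than at P8, P14 had the lowest mean of the 5 ages. In all 5 fallers that were higher at P70, P14 had the highest. The choice of these IDs all but excludes P8 and P21 as the extreme age, so the counts are a description only. Many of the 21 risers have ID numbers in the imprecise range named above. ENSRNOG00000016628 went from 1.83 ± 0.441 FPKM at P8 to 4.22 ± 0.577 at P14 and back to 1.94 ± 0.168 at P21, with 2.71 ± 0.227 at P70 (SD, n = 5 each; log2 change from P14 to P21 -0.95 ± 0.15 SE, limma adjusted p = 0.000103). ENSRNOG00000002418 did the opposite, with 5.79 ± 0.355 FPKM at P8, 3.26 ± 0.182 at P14, 5.16 ± 0.619 at P21 and 4.41 ± 0.585 at P70 (SD, n = 5 each; log2 change 0.59 ± 0.09 SE, limma adjusted p = 5.16e-05). Both are named after their values were seen.

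Each library was also placed on the line from the P8 mean (0%) to the P70 mean (100%) over all tested IDs, a measure chosen after the data were seen and built only on P8 and P70 libraries. P14 libraries lay at 47.3%, 48.0%, 51.5%, 47.8% and 50.8%, and P21 libraries at 78.3%, 81.2%, 79.7%, 84.0% and 81.6%. The libraries of each age were within a few percentage points of each other, and the ages did not overlap. The mean was 49.1% ± 1.92 at P14 and 81.0% ± 2.14 at P21 (SD, n = 5 each; exact two-sided permutation test, p = 0.00794, the smallest that 5 against 5 allows). Without the 60 swinging IDs the means were 47.8% ± 1.78 and 81.8% ± 2.14. P35 libraries lay at 86.5% to 99.5%, all above the P21 libraries.

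**Figure D5:**
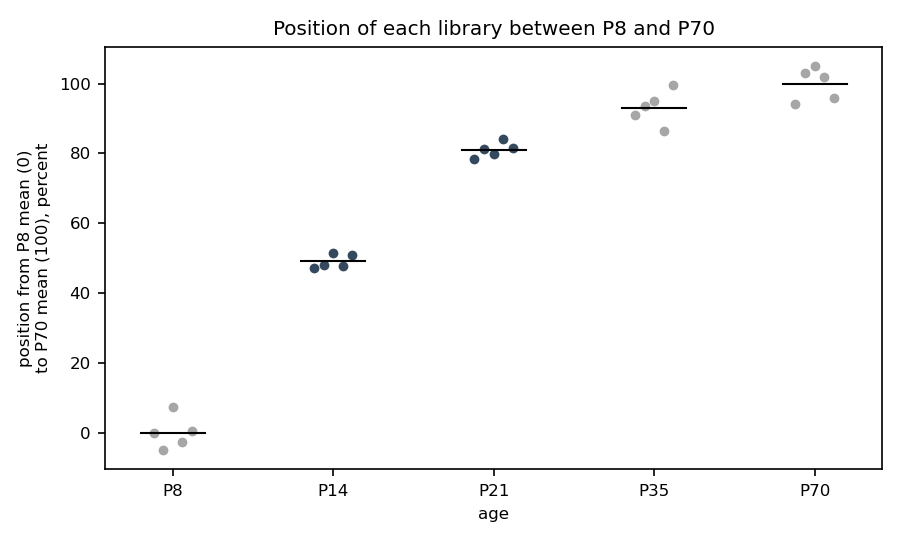
Position of each library between the P8 mean (0%) and the P70 mean (100%), with 1 point per library, a bar at each age mean, and P14 and P21 in dark points. The 5 P14 libraries lie between 47.3% and 51.5% and the 5 P21 libraries between 78.3% and 84.0%, with no overlap between neighbouring ages up to P35.

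The median levels of the called IDs are given for each age as a description. Their direction from P14 to P21 is set by the choice of the IDs. From P8 to P70 the median of the risers was 3.04, 4.23, 6.91, 7.46 and 7.66 FPKM. The median of the fallers was 12.1, 9.77, 6.74, 6.31 and 6.1 FPKM. The median of strong risers did not climb from P8 to P14: it was 2.26 FPKM at P8, 1.4 at P14, 8.67 at P21 and 6.44 at P70. How far the imprecise ID range shaped these medians was not tested. Strong fallers had medians of 16.8, 10.6, 3.61, 3.63 and 3.75 FPKM, level from P21 on.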

How the data were processed

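RNA of 25 libraries, 5 per age, had been depleted of ribosomal RNA and sequenced as single-end reads, per the labels' protocols. The authors deposited 1 table of FPKM values. The labels' protocols name GSNAP and the rn4 assembly for alignment. Cufflinks, bedtools and BWA 0.6.1 are listed, without roles, in the submitters' processing notes. Annotation release, strand and the handling of multi-mapping reads: not given in the sources used here. IDs with near-identical copies or antisense partners carry uncertain values, and FPKM is relative to each library's composition.

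Log2(FPKM + 0.5) was fitted with limma 3.58.1 in R 4.3.3 over all 25 libraries (1 mean per age, 20 residual degrees of freedom, empirical Bayes with trend, two-sided tests, Benjamini-Hochberg adjustment over 14128 IDs). Call rule, filter and naming rule are given with the results. Gene names, part of the naming rule, could not be used, and gene lists, markers and promoters were not analysed here. Library measures were tested by exact permutation. Whole reads were sought where at least 15 libraries were above 0, with at most 3000 reads for the lowest value; 99.92% of the values of recovered IDs were whole within 0.05 reads. No 2 columns were identical (0 pairs). Tests were checked on simulated data with independent libraries, without a block or scaling differences between libraries. Of 200 IDs changed by 1.5-fold, 54.5% were recovered, with 5 false calls. For 2-fold changes 88.5% were recovered, with 10 false calls. Alternatives were pseudocounts of 0.1 and 1, filters, scalings, a random block, the 10 libraries alone, no trend and left-out libraries. Differences between steps were not fitted under these alternatives. The comparison, lists, rules and alternatives were chosen with earlier results of these data known.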

Additional observations from a re-analysis of the deposited data

Results flagged for a closer look

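For 56 IDs, among them all those named in the report, and for 4 library measures, each group of 5 libraries at P14 or P21 was searched for 1 library standing apart. This gave 7 cases in 120 groups, and chance alone gives about 1 in 20 groups, or 6 of 120. In 2 of the cases, 4 libraries were listed at 0, beside which any value above 0 stands apart: ENSRNOG00000034416 with 0.876 FPKM (P14 replicate 1) and ENSRNOG00000034393 with 1.02 FPKM (P14 replicate 5). The P14 value of ENSRNOG00000006471 in replicate 1, 3.61 FPKM, stood above a range of 1.16 to 1.81 FPKM. ENSRNOG00000007214 in P14 replicate 5, at 1.45 FPKM, stood under a range of 2.31 to 2.59 FPKM. The P21 value of ENSRNOG00000018992 in replicate 1, 7.71 FPKM, stood under a range of 12.2 to 12.9 FPKM. ENSRNOG00000005479 in P21 replicate 5, at 420 FPKM, stood above a range of 270 to 297 FPKM. ENSRNOG00000016628 in P21 replicate 3, at 2.24 FPKM, stood above a range of 1.85 to 1.88 FPKM.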

How the results depend on the processing

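No paired analysis was possible because replicate numbers here follow the order of accessions and no first title number recurs at both ages. With a random block for that title number (correlation 0.33), 1411 IDs were called, all among the 2458, and 1341 of them were called the same way from P8 to P70. With a mean of at least 5 FPKM the counts were 1591 and 1492, from fewer IDs tested, and with FPKM totals made equal 154 and 124. Without P14 replicates 2 and 5 and P21 replicate 5 they were 1580 and 1490, from fewer libraries. The main fit takes libraries that share a first title number as independent. For the block and the equal totals the cause of the lower counts was not tested. Other settings gave 1849 (the 10 libraries alone) to 2794 (median-of-ratios scaling) calls, and leaving out 1 library gave 1946 (without P21 replicate 3) to 2556 (without P14 replicate 5). Of the 20 largest rises and falls, 18 kept direction and call under every setting that tested them (21, or 20 for ENSRNOG00000015155, whose mean over all libraries was under 5 FPKM), and ENSRNOG00000034534 and ENSRNOG00000036235 lost the call under 1. No call among the named IDs reversed direction (ENSRNOG00000016628 and ENSRNOG00000002418 were not followed), and reversals were not counted over all 2458. Low IDs are limited by reads, and P21 replicate 5 by its depth.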
